A study of Mus musculus with 4 samples.

Results

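The mitogen-activated protein kinase ERK switches on genes whose products dampen signalling by ERK or related MAP kinases, and 10 of these feedback genes are described here. They are 7 dual-specificity phosphatase genes (Dusp1, Dusp2, Dusp4, Dusp5, Dusp6, Dusp7 and Dusp10) and 3 Sprouty genes (Spry1, Spry2 and Spry4), out of 18193 genes measured. The members were chosen by function around Dusp2, which was itself selected on its lower value in knockout cells on these same arrays. The comparison of knockout with wild-type cells is therefore given for the members as a description, without p-values. 17 probe sets carried exactly 1 member symbol in the platform annotation, and each gene is represented by its probe set of highest mean over the 4 arrays. All 10 genes had at least 1 probe set, and no probe set with several symbols held a member.

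The arrays measured messenger RNA of hair follicle stem cells, the cells from which the follicle is rebuilt in each hair cycle. They had been sorted by flow cytometry out of C57BL/6 mouse skin at postnatal day 4. Of the 4 Affymetrix arrays, 2 came from miR-205 KO mice and 2 from WT mice, numbered 1 and 2 in each genotype. The labels give neither the deleted part of the Mir205 locus nor the number of animals or pools, and they name no Cre or promoter. A treatment text shared by all samples speaks of another mouse model, K14-rtTA with TRE-miR-203, and was not used. The titles call the arrays of a genotype biological replicates without saying whether these were separate animals or litters, so SDs measure the spread between these samples. The SEs are moderated by limma, which combines the spread of a gene between these samples with that of all genes.

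Dual-specificity phosphatases of this family remove the activating phosphates from both the threonine and the tyrosine of a MAP kinase. Sprouty proteins act further upstream and dampen the signal from growth factor receptors to RAS and RAF. Many of these genes are transcribed within minutes of ERK activation, so their RNA is widely used as a readout of recent ERK activity, and in skin such signals come from EGF and FGF receptors.

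The microRNA missing from the KO mice is shown first. Its dominant mature strand, from chr1:193507503-193507524 on the minus strand of GRCm38.p6 (RefSeq), is printed with the seed, bases 2 to 8, in capitals.
miR-205-5p: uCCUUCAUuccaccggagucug
Transcripts were not searched for this seed here, so none of the members is described as a target.

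Promoter sequences are shown for Dusp2, the gene from which the list was built, and for Dusp5 and Dusp1, nuclear phosphatases whose promoters held the motifs searched. RefSeq promoters of GRCm38.p6 matched 8 of the 10 members. Each sequence is the 250 bases before the annotated start, read 5′ to 3′ on the gene's strand, from chr2:127335909-127336158 (plus strand) for Dusp2, chr19:53528895-53529144 (plus strand) for Dusp5 and chr17:26508473-26508722 (minus strand) for Dusp1. Capitals mark matches on either strand to the CArG box, which serum response factor binds, to the cyclic AMP response element TGACGTCA, or to its core TGACG, which lies within the full element.
Dusp2: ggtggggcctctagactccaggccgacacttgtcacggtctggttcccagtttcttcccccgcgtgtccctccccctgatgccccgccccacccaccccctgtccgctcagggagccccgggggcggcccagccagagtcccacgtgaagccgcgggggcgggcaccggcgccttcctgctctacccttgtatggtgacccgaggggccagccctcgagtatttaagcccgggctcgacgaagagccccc
Dusp5: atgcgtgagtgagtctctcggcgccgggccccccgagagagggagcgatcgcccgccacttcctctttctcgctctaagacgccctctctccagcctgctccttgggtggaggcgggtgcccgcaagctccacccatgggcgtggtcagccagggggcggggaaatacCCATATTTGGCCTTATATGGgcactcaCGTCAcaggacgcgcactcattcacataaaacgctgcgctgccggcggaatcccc
Dusp1: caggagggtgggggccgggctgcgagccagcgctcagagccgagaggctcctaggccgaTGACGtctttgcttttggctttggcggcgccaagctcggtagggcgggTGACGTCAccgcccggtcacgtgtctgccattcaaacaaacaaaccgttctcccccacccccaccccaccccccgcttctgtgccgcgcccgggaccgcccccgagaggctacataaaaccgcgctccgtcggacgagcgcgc

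The Dusp5 window held adjoining CArG boxes, at 63 to 72 and 73 to 82 bases before the start, and a core TGACG on the opposite strand at 51 to 55 bases. The Dusp1 window held the full TGACGTCA at 136 to 143 bases before the start and a further core at 187 to 191 bases. The Dusp2 window held none of the motifs searched. Among 32851 RefSeq promoter windows of the same length, 1.47% held a CArG box, 1.55% held TGACGTCA and 17.8% held TGACG. Of the 8 member windows, 1 held a CArG box, 1 held TGACGTCA and 2 held TGACG. The AP-1 motif TGANTCA (6.75% of all windows) and the ETS motif CCGGAA (12%) were in none of the 8. The Dusp2 window was 70.4% G and C, against a median of 52.4% over all windows. A match or its absence describes the letters of these windows only.

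The lower value of Dusp2 in KO cells was not matched by the other members on these arrays. Of the 9 other members, 3 had a lower mean in KO than in WT cells (Dusp5, Dusp10 and Dusp6) and 6 had a higher one. Dusp2 was the 1 member with both KO arrays below both WT arrays, and no member had both KO arrays above both WT arrays. Over all genes 5.7% lay below and 8.2% lay above in this way. Counting Dusp2, 4 of 10 members had a lower KO mean, against 45.0% of all genes. The median difference of the members, KO minus WT on the log2 scale, was 0.015, against 0.0082 for all genes. None of the 10 members was called in either direction by limma at an adjusted p under 0.05 over all genes, where 0.011% of genes were called. With 2 arrays per group even the Y-linked Kdm5d, with a difference of 4.49, was not called. A member that was not called is therefore not shown to be unchanged. Since the list was built around this comparison, these counts describe the members and support nothing further.

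The count of lower members depended on single arrays. It was 9 without KO 1 and 7 without WT 2, and it was 3 without KO 2 and 5 without WT 1. The 3 members whose difference kept its sign under every alternative and every left-out array were Dusp2, Dusp5 and Dusp7. For Dusp2 no left-out array could change the sign, since both KO arrays lay below both WT arrays. Dusp2 and Dusp5 have 1 probe set each, so the other probe set rules could not change their values. The replicate block leaves every difference as it is.

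Dusp2 encodes a nuclear phosphatase of ERK and p38, best known from activated lymphocytes. Its log2 value was 6.89 on KO 1, 7.33 on KO 2, 7.70 on WT 1 and 7.78 on WT 2. The WT arrays lay close together, and the KO arrays lay apart from each other and below them. The KO mean was 7.11 ± 0.31 and the WT mean 7.74 ± 0.051 (SD over 2 arrays each), a difference of -0.63 with a moderated SE of 0.19, or a WT value 1.55 times the KO value. Within the numbers it was -0.81 (KO 1 minus WT 1) and -0.44 (KO 2 minus WT 2). On leaving out single arrays it was -0.85 without KO 2, -0.41 without KO 1, -0.67 without WT 1 and -0.59 without WT 2. Dusp2 was also the only member at least 1.5-fold apart, as 0.627% of all genes were. It has 1 probe set, so no other one could be set beside it. Its mean of 7.43 lay at percentile 56.5 of all genes, and KO 1 was near the level of the median gene (6.88). Without detection calls in the deposited table, its signal over background is unknown.

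Dusp5, a nuclear phosphatase specific for ERK, came nearest to Dusp2. It was at 9.41 on KO 1, 8.88 on KO 2, 9.67 on WT 1 and 9.32 on WT 2. KO 1 lay between the WT arrays, so the groups overlapped. Its difference was -0.35 with an SE of 0.26 (KO mean 9.14 ± 0.38, WT mean 9.50 ± 0.25, SD over 2 arrays each). Within the numbers it was -0.26 and -0.45. On leaving out single arrays it ran from -0.62 without KO 1 to -0.09 without KO 2. Both number 1 arrays were above the number 2 array of their genotype, by 0.53 in KO and 0.35 in WT cells.

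Dusp1 and Dusp4 complete the nuclear, rapidly induced phosphatases of the list. Dusp1, which acts on p38 and JNK as well as ERK, was at 12.46 and 12.26 on KO 1 and KO 2 and at 12.41 and 12.30 on WT 1 and WT 2. The KO values enclosed the WT values, with a difference of 0.0033 and an SE of 0.10. Dusp4, a phosphatase of ERK and JNK, was at 9.28 and 8.81 on the KO arrays and at 8.96 and 8.95 on the WT arrays. Here too the KO arrays lay on either side of the WT arrays, and the difference of 0.09 had an SE of 0.19. It changed sign between the numbers, at 0.32 for number 1 and -0.14 for number 2.

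Dusp6 and Dusp7 encode cytoplasmic phosphatases that prefer ERK, and Dusp6 is a standard readout of FGF signalling. Dusp6 was at 11.71 and 11.56 on the KO arrays and at 11.76 and 11.64 on the WT arrays. The groups overlapped within a range of 0.20, and the difference was -0.07 (SE 0.09). Dusp7 was at 8.82 and 8.64 on the KO arrays and at 8.33 and 8.64 on the WT arrays. KO 2 and WT 2 had the same value, so its difference of 0.25 (SE 0.15) came from the number 1 arrays, 0.49 apart. Its 2 other probe sets differed by 0.26 and 0.11, and in both WT 1 was the lowest array. The probe set used for Dusp7 has the suffix that Affymetrix gives to sets whose probes can match other transcripts.

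Dusp10 prefers p38 and JNK over ERK. It was at 8.73 and 9.07 on the KO arrays and at 9.02 and 9.18 on the WT arrays. KO 2 lay between the WT arrays, with a difference of -0.20 (SE 0.15). The KO value was lower within both numbers, by -0.29 and -0.10. The second probe set, a dim one at 4.82 to 5.03, differed by 0.10 in the opposite direction. Lower KO values within both numbers were seen for 4 members (Dusp2, Dusp5, Dusp6 and Dusp10), against 16.8% of all genes, a comparison whose direction the choice of Dusp2 had in part fixed.

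**Figure D1:**
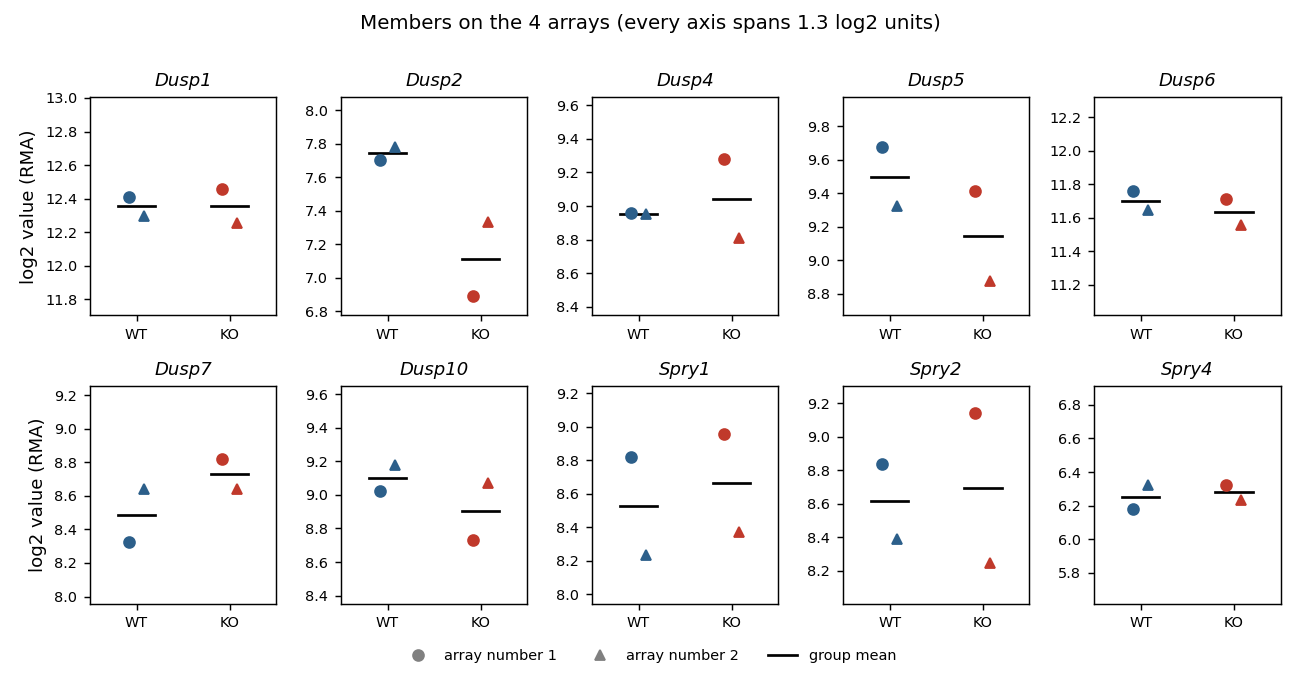
Log2 RMA value (vertical axis) of the 10 members in WT (blue) and KO (red) cells, circles for the number 1 arrays, triangles for the number 2 arrays and black bars for group means, with 1.3 log2 units on every axis. Only Dusp2 has both KO arrays, at 6.89 and 7.33, below both WT arrays, at 7.70 and 7.78.

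The 3 Sprouty genes had higher means in KO cells, each by less than its SE. Spry1 was at 8.96 and 8.37 on the KO arrays and at 8.82 and 8.23 on the WT arrays. It was higher in KO within both numbers by nearly the same amount, 0.14 and 0.14, yet the arrays of number 1 stood 0.59 above those of number 2 on average. With that spread its difference of 0.14 had an SE of 0.34. Spry2 was at 9.14 and 8.24 on the KO arrays and at 8.84 and 8.39 on the WT arrays. The KO arrays were the highest and the lowest of the 4, and the difference was 0.08 (SE 0.41), or 0.30 and -0.15 within the numbers. Its dim second probe set, at 5.76 to 5.90, differed by 0.07.

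Spry4 was at 6.32 and 6.24 on the KO arrays and at 6.18 and 6.32 on the WT arrays. KO 1 and WT 2 had the same value and the groups overlapped, with a difference of 0.03 (SE 0.08). All 4 of its probe sets were below the median gene (6.88), and their differences ran from -0.05 to 0.13. Without detection calls in the deposited table, signal and background cannot be separated for such dim sets.

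**Figure D2:**
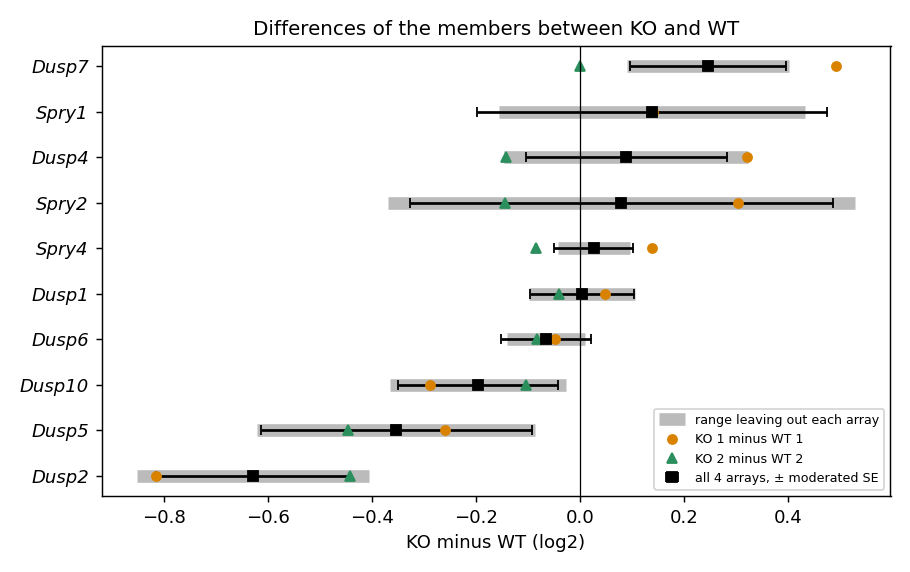
Difference between KO and WT in log2 units for each member (black squares with the moderated SE), with the differences within number 1 (orange circles) and number 2 (green triangles) and the range on leaving out each array (grey bars). The grey bars of Dusp2 (-0.85 to -0.41), Dusp5, Dusp10 and Dusp7 stay on 1 side of 0, and those of the other 6 members cross it.

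Array number separated most members more than genotype did, as it did most of all genes. The mean of the number 1 arrays differed from that of the number 2 arrays by more than KO differed from WT in 7 of 10 members, and in 54.7% of all genes. The 3 exceptions were Dusp2, Dusp7 and Spry4, the last with equal sizes. 6 members (Dusp1, Dusp4, Dusp5, Dusp6, Spry1 and Spry2) were higher on number 1 in both genotypes, as were 28.4% of all genes. The largest such differences were 0.67 for Spry2, 0.59 for Spry1 and 0.44 for Dusp5. Dusp2 and Dusp10 went the other way, at -0.26 and -0.25, with the number 1 array lower in both genotypes. The labels do not say what the numbers share, and these values were not tested.

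**Figure D3:**
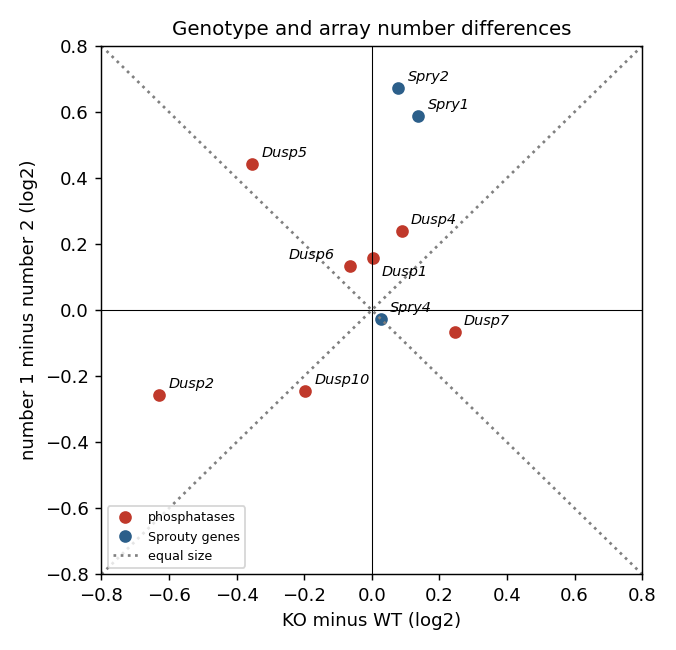
KO minus WT (horizontal, log2) against number 1 minus number 2 (vertical, log2) for the phosphatases (red) and Sprouty genes (blue), with dotted lines where both are equal in size. Spry1 and Spry2 lie high and near 0 on the genotype axis, at 0.59 and 0.67 on the vertical axis, while Dusp2 lies at -0.63 on the horizontal axis.

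Other genes of the ERK pathway and related genes were taken from 5 lists chosen by function, of which 61 of 68 genes were measured. The lists reach beyond ERK to p38 and JNK kinases and to other dual-specificity phosphatases. With limma, none of the 61 was called after adjustment over all genes, and 1 (Fosb) was below 0.05 before adjustment, as were 1.88% of all genes. As for the members, the absence of a call with 2 arrays per group does not show that a gene was unchanged. Of the 61, 32 had higher and 29 lower means in KO cells. With both KO arrays apart from both WT arrays there were 4 on the high side and 3 on the low side, near or under the shares of all genes given above for such separation. Values given for these lists are KO minus WT on the log2 scale.

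The 17 measured genes that ERK induces as transcription factors or early response genes had a median of -0.0025, with 8 higher and 9 lower. The 3 with both KO arrays below both WT arrays were all in this list, 3 of its 17 genes against 5.7% of all genes. Fosb, a subunit of the AP-1 factor, was at 9.18 and 8.88 on the KO arrays and at 9.54 and 9.51 on the WT arrays, a difference of -0.49 (SE 0.13). Maff, a small MAF factor, was at 9.74 and 9.42 against 9.95 and 9.89, a difference of -0.34 (SE 0.14). Mcl1, an anti-apoptotic BCL2 relative, differed by -0.06 (SE 0.04) and Epha2, an ephrin receptor, by -0.22 (SE 0.15). The other 13 genes ran from -0.23 for the zinc finger factor gene Egr2 (SE 0.22) to 0.25 for Myc (SE 0.62). Between them were Fos at 0.04 (SE 0.09), Egr1 at 0.03 (SE 0.07) and the ETS factor genes Etv4 and Etv5 at 0.09 (SE 0.14) and 0.13 (SE 0.13). These 6 genes were named after their values were seen. Early response genes also rise while tissue is dissociated for sorting, and the part of that step in these values was not tested.

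Further inhibitors of the pathway had a median of 0.08 over 12 genes, with 8 higher and 4 lower. Rasa1, a RAS GTPase-activating protein, differed by 0.10 (SE 0.06), and its KO arrays were both above its WT arrays. Il17rd, a membrane antagonist of FGF signalling, differed by 0.17 (SE 0.12), and Spry3 and Spred3 were dim and differed by 0.09 and 0.12. Among 11 other dual-specificity phosphatases the median was -0.03, with 5 higher and 6 lower and none with separate groups. Dusp16, a JNK phosphatase, differed by -0.11 (SE 0.08), Dusp11 by 0.10 (SE 0.08), the dim Dusp9, an ERK phosphatase related to Dusp6 and Dusp7, by -0.28 (SE 0.23), and Dusp19 by -0.07 (SE 0.07).

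The cascade itself, from receptors to kinases, had a median of 0.0061 over 13 measured genes, 7 higher and 6 lower. The scaffold gene Ksr1 differed by 0.17 (SE 0.06), the kinase gene Map2k2 by 0.12 (SE 0.06), the receptor gene Egfr by 0.07 (SE 0.05) and the RAF kinase gene Araf by -0.07 (SE 0.07). The first 3 had both KO arrays above both WT arrays, which held for 3 of 13 genes here and 8.2% of all genes. The p38 and JNK kinases and the MAP kinase kinases that activate them had a median of 0.02 over 8 genes, 4 higher and 4 lower. Of these, Mapk8 differed by -0.20 (SE 0.12), Mapk11 by 0.22 (SE 0.13), Map2k6 by 0.15 (SE 0.11) and Mapk9 by -0.08 (SE 0.08).

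**Figure D4:**
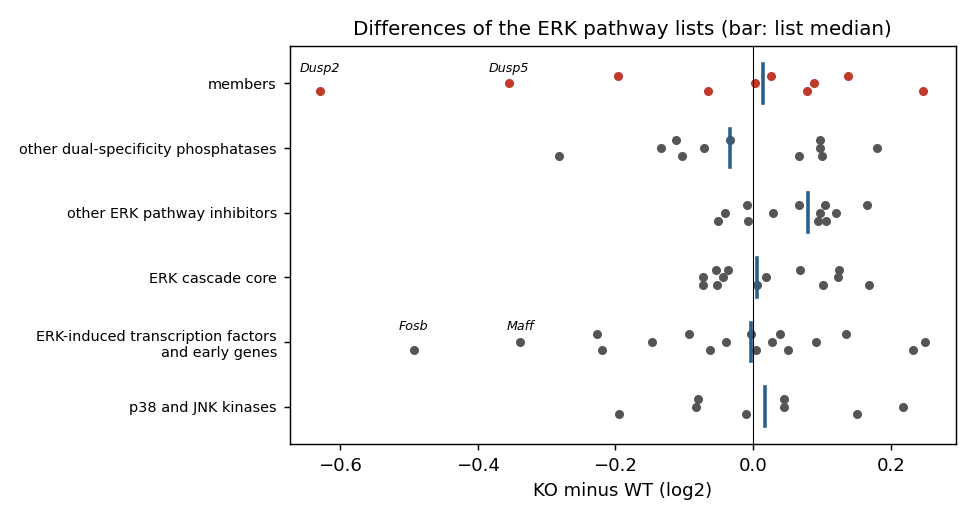
Difference between KO and WT (log2, horizontal) for every measured gene of the members (red) and of 5 other lists of ERK pathway and related genes (grey). A blue bar marks each list's median, and small vertical offsets are for visibility. All 6 medians lie between -0.03 and 0.08, and Dusp2 at -0.63 and Fosb at -0.49 lie farthest from 0.

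The genes whose 4 array values, centred on their own mean, were most like those of Dusp2 among 9095 genes above the median level were 5530601H04Rik, Ramp1 and Ube2s. Their root mean square differences from the Dusp2 profile were 0.11, 0.12 and 0.14 log2 units. KO 1 was the lowest array in each of the 3, as it was for Dusp2, which adds nothing since they were chosen by their likeness to it. Likeness over 4 arrays is a description.

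The arrays differed in other ways beside genotype. Xist was at 5.26 and 5.45 on the KO arrays and at 13.28 and 13.19 on the WT arrays, while the Y-linked Eif2s3y was at 9.59 and 9.57 against 3.05 and 2.86. These were the 2 genes that limma called over all genes (adjusted p = 0.038 for each), and their levels are those of male cells on the KO arrays and female cells on the WT arrays. The Y-linked Kdm5d and Uty were higher on the KO arrays by 4.49 and 3.48 and were not called. Whatever sets these sex-linked RNAs apart cannot be told apart from genotype in any difference given here. The label of the cells was borne out by high Krt15, Krt14, Krt5, Krt17 and Lhx2. Array medians were 11.39 to 11.72 over 11 follicle and basal markers, and the surface marker Cd34 was low (mean 7.02). Of the 11 markers, 6 had higher and 4 lower KO means, with a median difference of 0.07. Krt5, Krt14, Krt15 and Lhx2 had both KO arrays above both WT arrays, which held for 4 of 11 markers and 8.2% of all genes. The 10 dermal fibroblast markers stood highest on WT 1 (median 10.37, with 9 of the 10 genes at their maximum there), ahead of KO 1 at 9.08, KO 2 at 8.74 and WT 2 at 8.37. All 10 had a lower KO mean, with a median difference of -0.50 and 4 of them past 1.5-fold, and 9 of the 10 were higher on number 1 in both genotypes. The 8 immune markers were dim, with array medians of 4.30 to 4.48, and Ptprc and Cd3g had means of 3.54 and 3.53. Endothelial markers (6 genes) had medians of 5.55 to 5.69, with 3 of 6 below WT on both KO arrays and Egfl7 differing by -0.28. Melanocyte markers (6 genes) had medians of 6.78 to 7.34 and were higher on number 1 in both genotypes for 5 of 6. Of these 6 genes, 4 had lower and 2 higher KO means, with a median difference of -0.08. The melanocyte factor gene Mitf alone was below WT on both KO arrays, with a difference of -0.47 (SE 0.06). Mlana and Kit had higher KO means, by 0.31 and 0.17. The part of these other cells in the members' values was not tested, and in sorted bulk cells fewer cells of a type and less RNA per cell cannot be told apart.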

How the data were processed

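Messenger RNA was measured on 4 one-colour Affymetrix arrays. The deposited values are log2 expression from RMA, as the submitters' processing notes name it. RMA corrects background, gives all arrays a common distribution and summarises the probes of each set. Values ran from 2.51 to 14.56. The probe set definition, scan dates and genome build were not given in the labels. Symbols were those of GEO's platform annotation, updated by gene identifier to RefSeq (GRCm38.p6), in which 34741 of 34945 probe sets with 1 symbol matched. 932 had several symbols and 9160 had none here.

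The KO and WT arrays were compared over 18193 genes in R 4.3.3 using limma 3.58.1 (lmFit, eBayes, two-sided, no covariate). P-values were adjusted over all genes by Benjamini-Hochberg, with calls under 0.05. Differences are KO minus WT. The fit was tested on simulated data. All members are named, as are the up to 4 genes of smallest unadjusted p in each pathway list. The members and lists were chosen with earlier results of these data known. Alternatives were renormalization, a filter on dim genes, other probe set rules, a replicate block, another eBayes setting and leaving out each array. The number of arrays limits the precision.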

Additional observations from a re-analysis of the deposited data

How the results depend on the processing

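The count of genes past the threshold, 2 with all arrays, was 3 with quantile normalization again and with median centring, and 1 after dim genes were left out. It was 0 when probe sets were averaged, with the second brightest probe set and without any single array (limma). With the replicate number as a block it was 0. The deviations of the number 1 arrays from their group means correlated at r = 0.56 across genes. There are 2 pairs and no label for what a number shares, and what lies behind this correlation was not tested. Before adjustment 342 genes were under 0.05 with all arrays, 150 without dim genes, 265 to 295 with the other normalizations or eBayes setting, 375 and 394 under both other probe set rules, 879 with the block and 1044 to 2044 without single arrays. The other lists of ERK pathway and related genes had 0 genes past the threshold under every alternative with all 4 arrays. Before adjustment 1 to 5 of their genes were under 0.05 in these limma fits. The count of members with a lower KO mean ran from 3 to 9 on leaving out single arrays, and was 3 or 4 under the other alternatives. The count of members with separate groups was 1 and became 2 with the second brightest probe set, where Dusp7 joined. It ran from 3 to 7 on leaving out single arrays, where 1 group holds a single array and separates more easily. The members' median difference ran from -0.14 to 0.09 on leaving out single arrays. Under the alternatives with all 4 arrays, Dusp10 was the 1 member whose difference moved by more than its pooled SD between arrays. It moved to 0.10 with its second probe set. Leaving out 1 array cannot move a difference by more than that SD, so this measure could not mark members as unstable in those fits. Spry2 had the widest range there, from -0.37 to 0.53, and Spry1 ran from -0.16 to 0.43. No detection calls were used, so dim probe sets, such as those of Spry4, have unknown signal over background.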
